A study of Mus musculus with 8 samples.

Results

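Core clock genes were followed through the bulk RNA-seq of MC38 tumors. The 10 genes, taken by name, were Arntl and Clock, the period genes Per1, Per2 and Per3, the cryptochromes Cry1 and Cry2, the nuclear receptors Nr1d1 and Nr1d2, and Dbp. They are 10 of the 24421 genes in the deposited count table, and 10 of 10 passed the filter on low counts that left 14468 genes to test. Bulk RNA-seq was used in the study to ask whether exposure of a tumor to violet light alters gene expression in it. MC38 is a mouse colon adenocarcinoma line, and 250000 cells were injected subcutaneously into each 9-week-old female C57BL/6 Kaede mouse. Kaede is a fluorescent protein that turns from green to red under violet light. Of the 8 tumors, 4 received 405-nm light for 3 min on day 10 after injection (photoconverted tumors 1 to 4) and 4 received none (control tumors 1 to 4). All 8 were collected 5 h after the exposure, and both groups carried the Kaede transgene and the MC38 graft. The design gives 4 mice per group, and the tumors are whole tissue in which tumor, stromal and blood cells are read together. The hour of day of exposure and of collection is not given in the sources used here, nor whether control mice were handled as the exposed mice were.

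The circadian clock is a transcriptional loop found in most cell types. ARNTL (also called BMAL1) and CLOCK bind E-boxes as a pair and activate the Per, Cry, Nr1d and Dbp genes, the PER and CRY proteins then repress that pair, and the NR1D proteins (REV-ERBs) repress Arntl through ROR response elements. In a tissue with a running clock Arntl is therefore high when Dbp and Nr1d1 are low, and DBP in turn acts on D-boxes such as those of Per genes. Per1 also responds within hours to cAMP signaling and glucocorticoids.

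The promoters of 4 genes are shown as examples. Per3 separated the photoconverted from the control tumors, whereas Arntl was lower and Cry1 and Per1 higher in one set of tumors described below. Dbp, Clock and Cry2 also separated groups or sets, and their promoters were searched in the same way but are not shown. That of Dbp was left out because a GENCODE transcript starts within the 250 bases. The Cry1 window shown also holds a GENCODE start (base 85185064), and the Per1 window lies within the GENCODE gene (from base 69095217). The sequences shown are RefSeq promoters of build GRCm38.p6, each the 250 bases before the first start site listed. They are read 5′ to 3′ on the strand of the gene. Capitals mark an E-box (CACGTG), a D-box (TTATGTAA or TTACGTAA) or a ROR element half-site (AGGTCA, or TGACCT on the other strand), each searched on both strands. Per3 is at chr4:151044666-151044915 on the minus strand, Cry1 at chr10:85185055-85185304 on the minus strand, Per1 at chr11:69098699-69098948 on the plus strand and Arntl at chr7:113207215-113207464 on the plus strand.
Per3: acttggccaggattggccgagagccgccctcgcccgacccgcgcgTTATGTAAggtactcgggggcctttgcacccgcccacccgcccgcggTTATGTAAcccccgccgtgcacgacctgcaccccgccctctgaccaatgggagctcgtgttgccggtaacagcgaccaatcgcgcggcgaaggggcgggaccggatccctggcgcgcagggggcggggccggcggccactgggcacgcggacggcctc
Cry1: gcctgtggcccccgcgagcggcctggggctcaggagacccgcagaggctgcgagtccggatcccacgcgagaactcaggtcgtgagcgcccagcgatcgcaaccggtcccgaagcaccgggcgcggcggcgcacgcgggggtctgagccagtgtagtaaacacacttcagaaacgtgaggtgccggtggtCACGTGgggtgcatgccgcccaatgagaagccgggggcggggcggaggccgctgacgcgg
Per1: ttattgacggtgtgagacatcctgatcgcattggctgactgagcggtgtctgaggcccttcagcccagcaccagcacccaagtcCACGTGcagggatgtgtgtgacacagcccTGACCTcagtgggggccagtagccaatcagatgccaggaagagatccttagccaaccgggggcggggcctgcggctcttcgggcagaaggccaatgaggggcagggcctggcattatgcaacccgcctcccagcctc
Arntl: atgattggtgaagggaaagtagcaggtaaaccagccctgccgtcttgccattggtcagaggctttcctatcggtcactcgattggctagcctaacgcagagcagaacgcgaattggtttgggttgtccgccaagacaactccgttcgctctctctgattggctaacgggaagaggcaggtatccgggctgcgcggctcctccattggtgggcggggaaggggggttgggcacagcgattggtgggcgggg

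RefSeq promoters of 300 bases, which add 50 bases after the start site, were matched for 9 of the 10 genes, with 13 start sites. None was matched for Per2, whose promoter was therefore not searched. An E-box was present in 2 of these 13, the Cry1 promoter (starting at base -60) and the first Per1 promoter (-166), and in 7.15% of 32851 mouse promoters. A D-box was present only in the Per3 promoter, at bases -205 and -158, against 1.06% of all promoters. The ROR half-site was found in 4 of the 13 and in 16.3% of all promoters. It lay at -77 in Nr1d2, at -137 in the first Per1 promoter, at -119 in the third Clock promoter and at +32 in the second Arntl promoter, whose start lies just downstream of the one shown. No promoter of the 13 held the cAMP response element TGACGTCA, which 1.79% of all promoters held. These are matches of letters in a short window, and a motif outside it was not searched for.

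Libraries held between 12576615 and 35844417 counts. Rn45s, the precursor of ribosomal RNA, took 2.70% to 9.65% of counts in 5 tumors and 21.9%, 35.7% and 23.2% in photoconverted tumor 4, control tumor 2 and control tumor 4, which were also the shallowest libraries. Markers of colon epithelium were nearly absent, with a summed level of 3.62 to 6.60 CPM for 8 genes and Cdx2 at 0 in every tumor, whereas 5 fibroblast genes summed to between 3178 and 12389 CPM. CPM are read counts put on one library scale by TMM normalization. Skeletal muscle genes summed to 294 to 2496 CPM in photoconverted tumors and 268 to 757 CPM in controls, and neutrophil genes to 18.3 to 104 CPM and 15.8 to 27.6 CPM. In whole tumors fewer cells of a type and less RNA per cell cannot be told apart.

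Photoconversion was compared with control first. None of the 10 clock genes passed the adjusted threshold of 0.05 in edgeR, where 0% of the 14468 genes tested passed, nor in DESeq2, where 0.131% passed (19 genes). The log2 fold changes, photoconverted over control, ranged from -0.82 for Dbp to 0.17 for Arntl, 4 genes being higher and 6 lower. Their median was -0.06, beside -0.01 for all genes tested. At an unadjusted p under 0.05 edgeR marked 322 genes, or 2.23% of those tested (1.65% higher and 0.574% lower), and of the clock genes 1, Dbp. With the replicate number as a block 869 genes were marked, 0 passed after adjustment, and Dbp was again the only clock gene marked. In 2 of the 10, Dbp and Per3, every photoconverted tumor lay below every control tumor, which 0.643% of all genes did; 0 of the 10 lay wholly above, against 0.684% of all genes.

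**Figure D1:**
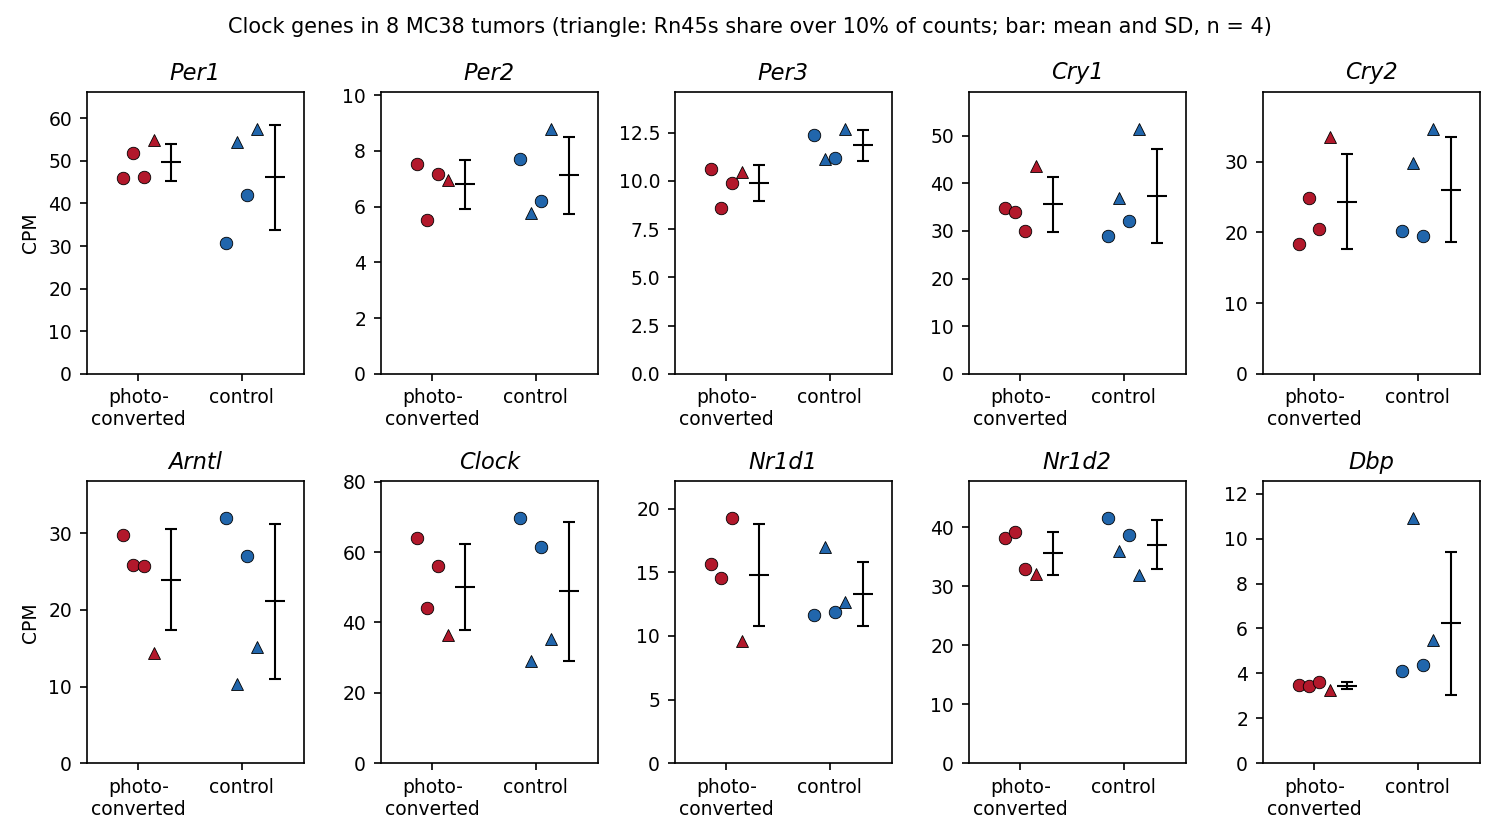
Expression of the 10 clock genes (y axis, CPM, linear from 0) in 4 photoconverted and 4 control tumors, 1 point per tumor with the group mean and SD beside the points; triangles mark the 3 tumors with more than 10% of counts on Rn45s. The photoconverted and control points do not overlap for Per3 and Dbp. The triangles sit below the circles for Arntl and Clock, and above them for Per1, Cry1 and Cry2.

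Dbp encodes a PAR bZIP transcription factor and is a direct output of ARNTL and CLOCK with one of the widest daily swings in mammalian tissues. Its level was 3.48, 3.44, 3.62 and 3.28 CPM in photoconverted tumors 1 to 4 and 4.11, 10.9, 4.37 and 5.49 CPM in control tumors 1 to 4. The photoconverted tumors were tightly grouped (3.46 ± 0.141 CPM, SD, n = 4) and the controls spread out (6.22 ± 3.19 CPM, SD, n = 4), and the groups did not overlap. The log2 fold change was -0.82 ± 0.32 (SE), with an adjusted p of 0.999 in edgeR (unadjusted 0.0283). The two-sided exact permutation test gave p = 0.0286, the smallest that 70 arrangements of 4 against 4 tumors allow. Taken by replicate number, the photoconverted tumor was lower in 4 of 4 pairs, for which the exact sign-flip p was 0.125, the smallest possible.

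The Dbp difference was smaller without control tumor 2. The log2 fold change was then -0.43, and among the 5 tumors under 10% Rn45s it was -0.27. Control tumor 2 also had the highest Rn45s share and the highest fibroblast sum (12389 CPM, against 3178 to 4603 CPM in the other 7), and the part of these in the Dbp level was not tested. Dbp lies at chr7:45705088-45710203 on the plus strand (mm10) and shares 539 exonic bases, 29.3% of its exon length, with Sphk2 on the other strand. The strand setting used in counting is not given, so reads of these genes cannot be told apart in that stretch. Sphk2, a sphingosine kinase, was at 26.5, 36.2, 31.3 and 43.7 CPM in photoconverted tumors and 24.6, 53.3, 28.4 and 41.4 CPM in controls. It was also highest in control tumor 2, but its groups overlapped, with a log2 fold change of -0.10 ± 0.26 (SE). Dbp rested on 48 to 144 reads per tumor.

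Per3 (chr4:151003652-151044665, minus strand), the period gene least needed for rhythm in mice, showed the other separation. It was at 10.6, 8.59, 9.89 and 10.5 CPM in photoconverted tumors and 12.4, 11.1, 11.2 and 12.7 CPM in controls. Every photoconverted tumor was thus below every control, although the highest of one and the lowest of the other were close. The means were 9.89 ± 0.917 and 11.8 ± 0.810 CPM (SD, n = 4 each), and the log2 fold change was -0.26 ± 0.14 (SE; edgeR adjusted p = 0.999, unadjusted 0.0919). The exact permutation p was 0.0286, again the smallest possible. The log2 fold change stayed between -0.30 and -0.20 when any 1 tumor was left out, and was -0.28 among the 5 tumors under 10% Rn45s. In the values normalized by the authors, Dbp and Per3 also separated the groups (exact permutation p = 0.0286 for each).

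**Figure D2:**
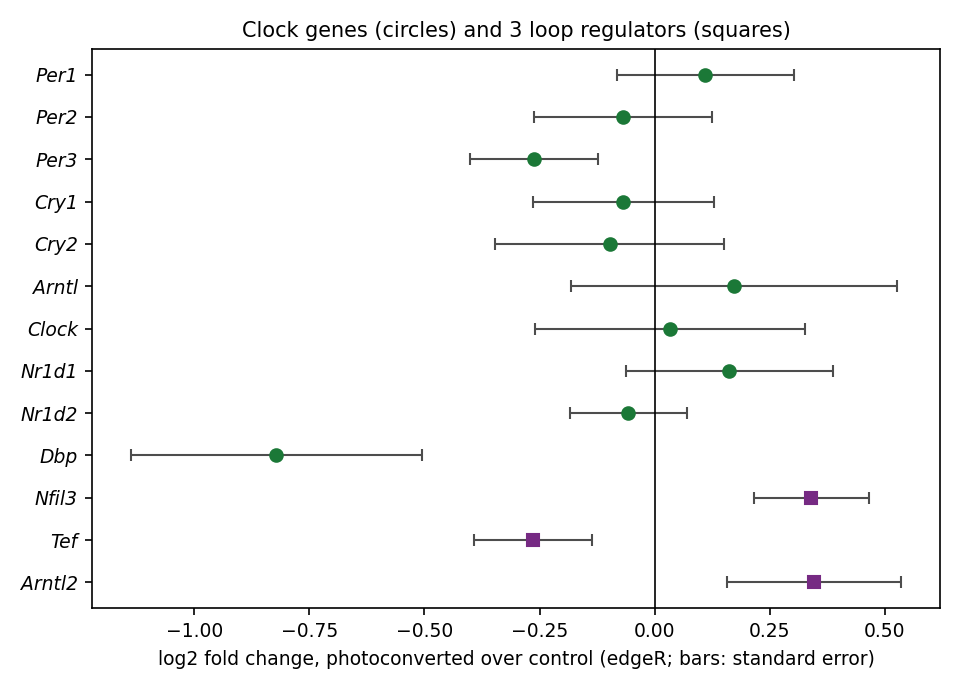
Log2 fold change of each clock gene (circles) and of the loop regulators Nfil3, Tef and Arntl2 (squares), photoconverted over control (x axis), with bars for the standard error of the edgeR fit. Dbp is farthest from 0, at -0.82, Per3 is at -0.26, and the other 8 clock genes lie between -0.10 and 0.17.

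Per1 (chr11:69095217-69109960, plus strand) and Per2 (chr1:91415982-91459324, minus strand) encode the main PER repressors. Per1 was at 46.0, 51.8, 46.2 and 54.8 CPM in photoconverted tumors and 30.6, 54.5, 41.9 and 57.5 CPM in controls. Control tumors held both the lowest and the highest value, and the log2 fold change was 0.11 ± 0.19 (SE; exact permutation p = 0.629). Per2 was scarce, at 7.53, 5.53, 7.17 and 6.97 CPM in photoconverted tumors and 7.71, 5.78, 6.18 and 8.79 CPM in controls. Its groups overlapped almost wholly, with a log2 fold change of -0.07 ± 0.19 (SE; exact permutation p = 0.743). Among the 5 tumors under 10% Rn45s, Per1 was higher in the photoconverted tumors by 0.41 on the log2 scale (edgeR adjusted p = 0.410), in a fit in which 0.275% of genes were called.

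The cryptochromes, Cry1 at chr10:85131700-85185064 and Cry2 at chr2:92403646-92434043, both on the minus strand, complete the repressor complex. Cry1 was at 34.8, 33.9, 30.1 and 43.7 CPM in photoconverted tumors and 29.0, 36.8, 32.2 and 51.5 CPM in controls. Cry2 was at 18.4, 24.8, 20.5 and 33.6 CPM in photoconverted tumors and 20.3, 29.9, 19.4 and 34.7 CPM in controls. Both were highest in replicate 4 of each group, and the groups overlapped. Log2 fold changes were -0.07 ± 0.20 for Cry1 and -0.10 ± 0.25 for Cry2 (SE), with exact permutation p of 0.8 and 0.771.

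The activators are Arntl at chr7:113207465-113314126 on the plus strand and Clock at chr5:76209868-76304792 on the minus strand. Arntl was at 29.7, 25.8, 25.8 and 14.4 CPM in photoconverted tumors and 31.98, 10.3, 27.0 and 15.2 CPM in controls. Clock was at 64.0, 44.1, 56.1 and 36.5 CPM in photoconverted tumors and 69.7, 29.0, 61.4 and 35.4 CPM in controls. Both genes were low in photoconverted tumor 4 and in control tumors 2 and 4, and high in control tumor 1. The groups overlapped, and log2 fold changes were 0.17 ± 0.35 for Arntl and 0.03 ± 0.29 for Clock (SE; exact permutation p of 0.657 and 0.743). With that of Dbp these are the widest standard errors of the 10, and the sign of neither change was stable when single tumors were left out (-0.05 to 0.44 for Arntl, -0.15 to 0.25 for Clock).

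Nr1d1 (chr11:98767932-98775333, minus strand) and Nr1d2 (chr14:18204054-18239127, minus strand) encode the REV-ERB repressors of the second loop. Nr1d1 was at 15.7, 14.6, 19.3 and 9.64 CPM in photoconverted tumors and 11.6, 17.0, 11.9 and 12.7 CPM in controls, so the lowest and the highest tumor were both photoconverted. Nr1d2 varied least of the 10, by 1.30-fold between its lowest and highest tumor, at 38.2, 39.3, 33.0 and 32.05 CPM in photoconverted tumors and 41.6, 36.1, 38.8 and 31.9 CPM in controls. The groups overlapped for both, with log2 fold changes of 0.16 ± 0.22 and -0.06 ± 0.13 (SE; exact permutation p of 0.6 and 0.686). Among the 5 tumors under 10% Rn45s the Nr1d1 change was 0.49 (edgeR adjusted p = 0.360), and with 1 tumor left out it lay between 0.01 and 0.31. Nr1d1 shares 263 exonic bases (9.67% of its exon length) with Thra on the other strand, which had a log2 fold change of -0.19 ± 0.21 (SE).

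Per kilobase of exon, the order of mean levels over the 8 tumors was Cry1 at 12.1 ± 2.50 CPM per kb (SD, n = 8), Per1 at 8.52 ± 1.56, Nr1d2 at 7.80 ± 0.790, Arntl at 7.29 ± 2.60, Cry2 at 5.80 ± 1.52, Nr1d1 at 5.16 ± 1.17, Clock at 4.99 ± 1.53, Dbp at 2.63 ± 1.39, Per3 at 1.81 ± 0.219 and Per2 at 1.19 ± 0.187. The ranges of all neighbors in this order overlapped. Within tumors, however, Cry1 exceeded Per1, Dbp exceeded Per3, and Per3 exceeded Per2 in 8 of 8, whereas Per1 exceeded Nr1d2 in 5 of 8, Nr1d2 exceeded Arntl in 4, Arntl exceeded Cry2 in 5, Cry2 exceeded Nr1d1 in 6, Nr1d1 exceeded Clock in 4 and Clock exceeded Dbp in 7. The middle of the order, from Per1 to Clock, therefore had no fixed sequence. Exon length here is that of the protein coding transcripts of the GENCODE basic set, merged, so the scale is approximate for genes with several start sites.

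Whether the activator and repressor arms moved together was asked across all 8 tumors. The activators Arntl and Clock moved together, whereas the genes of the other arm did not move as a whole against them. Arntl and Clock were lower in the 3 tumors with over 10% of counts on Rn45s, Cry1, Cry2 and Per1 were higher in the same tumors, and Per2, Per3, Nr1d1, Nr1d2 and Dbp overlapped between the sets. Arntl was at 10.3 to 15.2 CPM in the 3 tumors over 10% Rn45s and 25.8 to 31.98 CPM in the other 5, a difference in mean log2 CPM of -1.09. Clock was at 29.0 to 36.5 CPM against 44.1 to 69.7 CPM (-0.80). Neither gene had overlap between these sets of tumors, and 21% of all genes tested were likewise lower in the 3 tumors without overlap.

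Of the repressors, 3 differed in the other direction, as did 23.4% of all genes tested, without overlap. Cry2 was at 29.9 to 34.7 CPM in the tumors over 10% and 18.4 to 24.8 CPM in the others (difference 0.66), Cry1 at 36.8 to 51.5 against 29.0 to 34.8 CPM (0.45), and Per1 at 54.5 to 57.5 against 30.6 to 51.8 CPM (0.38). Without overlap the sign within each group is fixed, and of the photoconverted tumors only tumor 4 was over 10%. The sizes within photoconverted tumors and within controls were -0.90 and -1.23 for Arntl, -0.57 and -1.03 for Clock, 0.67 and 0.69 for Cry2, 0.41 and 0.51 for Cry1 and 0.19 and 0.64 for Per1. The other 5 genes overlapped, with differences of -0.17 for Nr1d1, -0.19 for Nr1d2, 0.06 for Per2, 0.12 for Per3 and 0.61 for Dbp. For Dbp the difference was -0.10 within photoconverted tumors and 0.86 within controls.

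Such a separation was common in these libraries. Without overlap, 23.4% of all genes tested were higher and 21% lower in the 3 tumors, 44.4% in all, beside 5 of the 10 clock genes, a share near that of all genes. The Arntl difference stood at percentile 6.48 of all genes, Clock at 11.8, Per1 at 78.4, Cry1 at 82.0 and Cry2 at 91.0. GC content of the longest protein coding transcript moved with the difference across genes, with a Spearman rho of 0.57 over 13108 genes, which are not independent replicates, and a median difference of -0.44 among genes at or under the lower GC quartile (45.5%) and 0.38 among those above the upper quartile (55.1%). Clock (40.9% GC) and Arntl (47.7%) were below the median GC of 50.3%, and Cry1 (51.6%), Cry2 (55.6%) and Per1 (59.4%) above it. Among the genes that overlapped, GC was 41.8% for Nr1d2 (difference -0.19), 52.4% for Per3 (0.12) and 54.3% for Per2 (0.06). It was 56.8% for Nr1d1 (-0.17) and 61.6% for Dbp (0.61). Summed skeletal muscle and neutrophil markers also did not overlap between these tumors, at 268 to 625 CPM against 645 to 2496 CPM for muscle and 15.8 to 18.3 CPM against 20.9 to 104 CPM for neutrophils. The part of GC content, muscle or neutrophils in the levels of Arntl, Clock, Cry1, Cry2 and Per1 was not tested.

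**Figure D3:**
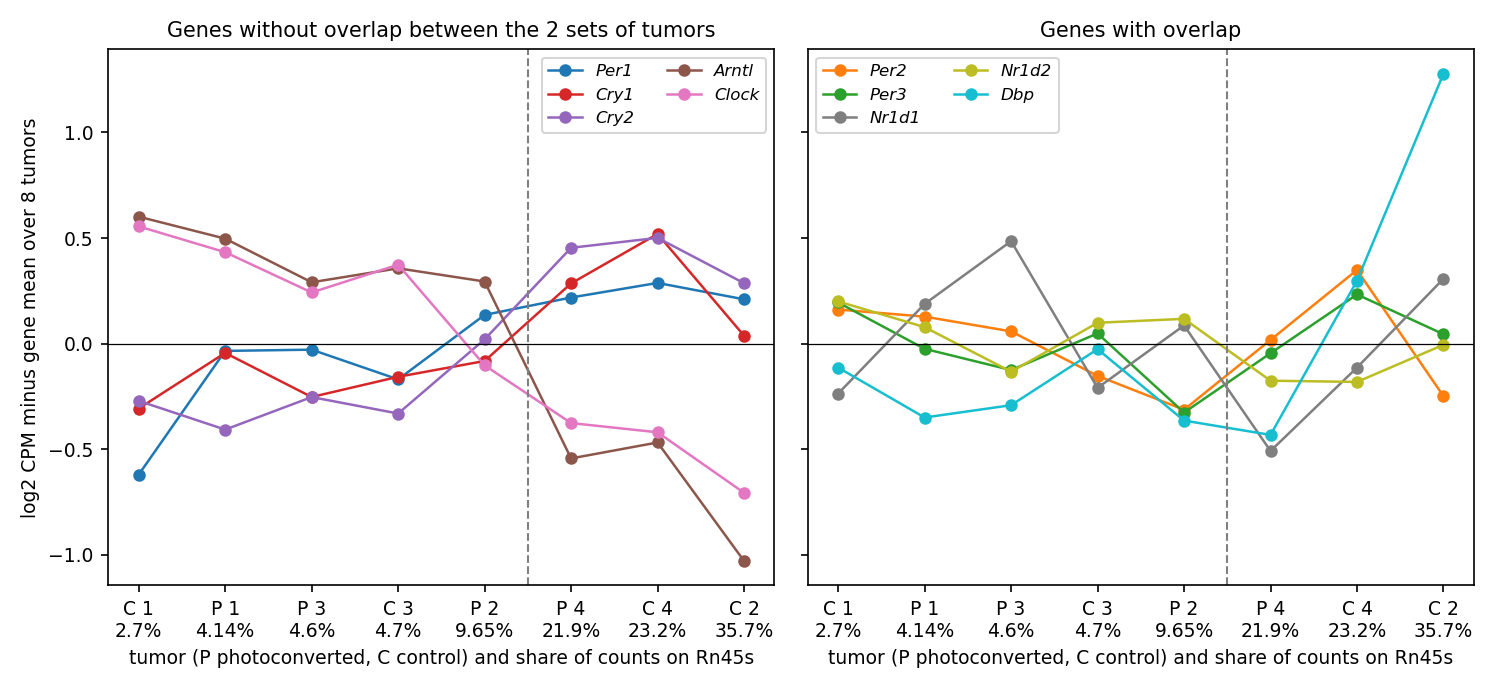
Log2 CPM of each clock gene minus its mean over the 8 tumors (y axis), with tumors ordered by the share of counts on Rn45s (x axis, P photoconverted and C control; the dashed line is at 10%). Arntl and Clock descend to the right while Cry1, Cry2 and Per1 are higher there (left panel), and the 5 genes of the right panel have no such break, Dbp being highest in control tumor 2.

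**Figure D4:**
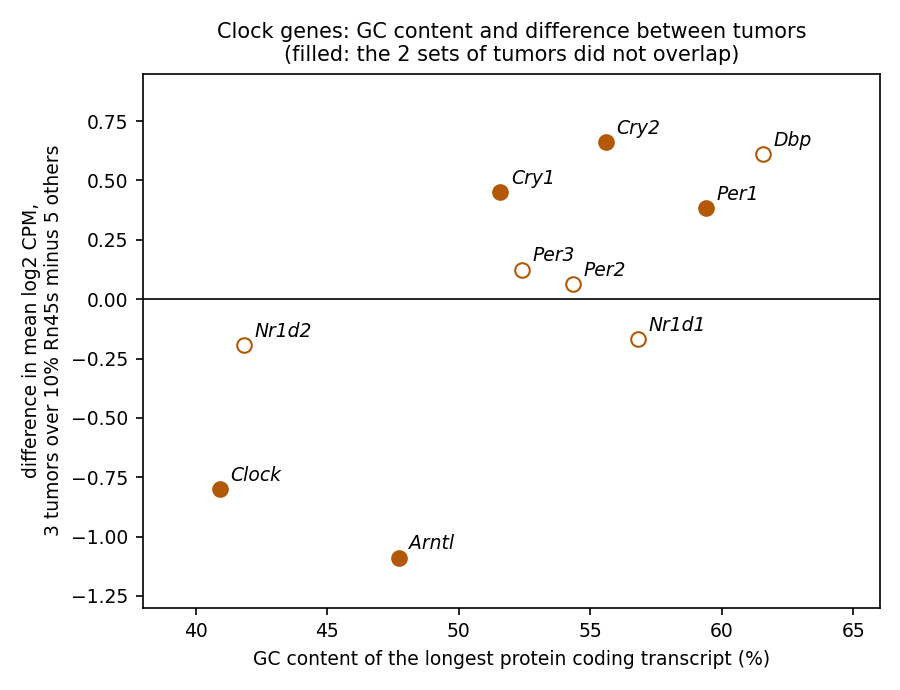
Difference in mean log2 CPM between the 3 tumors over 10% Rn45s and the 5 others (y axis) against the GC content of the longest protein coding transcript (x axis, %) for the 10 clock genes; filled points mark genes without overlap between the sets. Clock and Arntl lie at low GC with differences of -0.80 and -1.09, and Cry1, Cry2 and Per1 at higher GC with differences of 0.45, 0.66 and 0.38, while Nr1d1 lies below 0 at 56.8% GC.

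Correlations were computed for all 45 pairs of clock genes. For the 10 pairs among Arntl, Clock, Cry1, Cry2 and Per1 the tumors formed separate sets, so no pooled r is given for them. Among the 5 tumors under 10% Rn45s, r was 0.80 for Arntl and Clock. With Per1, Cry1 and Cry2 it was -0.80 to -0.27 for Arntl and -0.86 to -0.43 for Clock. Among Per1, Cry1 and Cry2 it was 0.08 to 0.73. These values over 5 tumors were not tested. In the other 35 pairs no correlation passed adjustment over the 45, the smallest adjusted exact permutation p of r being 0.167. Per1 and Nr1d2 gave r = -0.71 (exact permutation p = 0.0333, adjusted 0.167) and rho = -0.81 (p = 0.0218, adjusted 0.122), and r was -0.39 without control tumors 1 and 4. Per2 and Per3 gave r = 0.66 (exact permutation p = 0.0677, adjusted 0.218) and rho = 0.62 (p = 0.115, adjusted 0.304), and r was 0.03 without both photoconverted tumor 2 and control tumor 4, the tumors farthest from the median. The r was 0.44 without the first alone and 0.50 without the second alone, 0.70 among the 5 tumors under 10% Rn45s, and 0.91 with group means removed (exact permutation p = 0.00868, adjusted 0.130).

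Arntl was then paired with genes that a running clock sets in opposite phase to it. Both groups were collected at the same time, so the design gave no spread of daily phase. The r across these tumors therefore cannot show whether a clock was running. Arntl and Nr1d1 gave r = 0.04 (exact permutation p = 0.919, adjusted 0.984) and rho = -0.19 (p = 0.665, adjusted 0.978), with r = 0.08 without control tumor 2 and photoconverted tumor 4. Over the 4 differences between same-numbered tumors (the replicate block) this r was -0.45, although the labels state no pairing. It was -0.52 among the 5 tumors under 10% Rn45s. Arntl and Dbp gave r = -0.70 (exact permutation p = 0.0391, adjusted 0.174) but rho = -0.19 (p = 0.665, adjusted 0.978). The r was -0.75 without control tumor 2 and photoconverted tumor 4, and -0.23 without control tumor 2 alone. It was -0.94 over the 4 differences of the replicate block, and 0.29 among the 5 tumors under 10% Rn45s. Per3 and Dbp, both lower in photoconverted tumors, gave r = 0.40 (exact permutation p = 0.317, adjusted 0.750), rho = 0.71 (p = 0.0576, adjusted 0.216) and r = 0.28 without photoconverted tumor 2 and control tumor 4. With group means removed the r of Per3 and Dbp was -0.27, and over the 4 differences of the replicate block it was 0.96. It was 0.74 among the 5 tumors under 10% Rn45s and 0.75 without control tumor 2 alone. For Arntl, Dbp and Per3 the widest of the 4 differences was that with control tumor 2.

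The genes most like Arntl across the 8 tumors, by r of log2 CPM, were Erp44 (0.997), Sp1 (0.993), Yme1l1 (0.993), Zfp960 (0.993) and Wapal (0.992). An r above 0.9 with Arntl was shared by 1465 genes tested, and 1538 had an r below -0.9. Those most like Dbp were Amdhd2 (0.973), Loh12cr1 (0.971), Snx33 (0.968), Fam72a (0.944) and Slc27a1 (0.941), with 39 genes above 0.9. All 5 were highest in control tumor 2, as Dbp was. The points share libraries, depth and the Rn45s difference, and these values are descriptions.

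Other genes of the clock pathway were read from lists. Of 14 loop regulators tested, 0 passed the adjusted threshold, 5 were higher and 9 lower in photoconverted tumors, and the median log2 fold change was -0.02. For this list and those below, 46.8% of all genes tested were higher, with a median of -0.01. Nfil3, which encodes the bZIP repressor that competes with DBP at D-boxes, was at 41.5, 41.7, 44.8 and 37.24 CPM in photoconverted tumors and 33.9, 32.1, 27.4 and 37.17 CPM in controls. The groups did not overlap, by a narrow margin, and the log2 fold change was 0.34 ± 0.13 (SE; edgeR adjusted p = 0.999, unadjusted 0.0234; exact permutation p = 0.0286). Nfil3 was thus the reverse of Dbp in direction, by an unadjusted test in each. Tef, a DBP paralog, was at 16.2, 19.1, 15.7 and 18.3 CPM in photoconverted tumors and 20.7, 22.2, 21.8 and 18.6 CPM in controls. Its groups overlapped, at -0.27 ± 0.13 (SE; exact permutation p = 0.0571). Arntl2, the paralog of Arntl, gave 0.35 ± 0.19 (SE), with overlap.

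Of 12 kinases, phosphatases and ubiquitin ligases that act on clock proteins, 0 passed, 9 were higher and 3 lower, with a median of 0.06. Csnk2b, the regulatory subunit of casein kinase 2, was at 84.2, 85.4, 78.3 and 79.9 CPM in photoconverted tumors and 75.2, 60.6, 74.96 and 77.2 CPM in controls. Its groups did not overlap, and the log2 fold change was 0.19 ± 0.11 (SE; edgeR adjusted p = 0.999; exact permutation p = 0.0286). Ppp2ca (0.16) and Fbxw11 (0.13) overlapped.

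Of 9 clock-controlled outputs tested, 0 passed the threshold, 9 were higher and 0 lower, with a median of 0.05. Ppargc1a, a metabolic coactivator, was scarce, at 0.273 to 2.64 CPM in photoconverted tumors and 0.122 to 0.711 CPM in controls. It was at 1.34 ± 0.65 (SE) on the log2 scale. Without photoconverted tumor 3, whose muscle sum was 2496 CPM, it was at 0.78, and with the muscle score as covariate at 0.13. Nampt, an enzyme of NAD salvage, was at 0.26, and at 0.075 without control tumor 2. Alas1, of heme synthesis, was at 0.11.

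Genes of the inputs that act on Per1 were read beside it. Of 12 glucocorticoid-responsive genes, 0 passed in edgeR, 10 were higher and 2 lower, with a median of 0.23. The 2 lower genes were Fkbp5 (-0.21 ± 0.28, SE) and Tsc22d3 (-0.15 ± 0.14, SE), both with overlap. Errfi1, a feedback inhibitor of EGF receptor signaling, was at 109, 84.9, 130 and 50.16 CPM in photoconverted tumors and 38.1, 37.9, 30.5 and 49.93 CPM in controls. Its groups did not overlap, and the log2 fold change was 1.26 ± 0.28 (SE), with an adjusted p of 0.999 in edgeR and 0.0291 in DESeq2. Pdk4, a kinase that restrains glucose oxidation, was at 1.68 ± 0.66 and Dusp1, a MAP kinase phosphatase, at 0.87 ± 0.36 (SE), both with overlap. Pdk4 was scarce, with means of 5.20 CPM in photoconverted tumors and 1.61 CPM in controls. With the muscle score as covariate Pdk4 was at 0.46, Dusp1 at 0.41 and Errfi1 at 0.98.

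Of 12 immediate early genes responsive to CREB, 0 passed in edgeR, 10 were higher and 2 lower, with a median of 0.53. Egr1, a zinc finger factor induced by mitogens and stress, was at 149, 133, 235 and 15.2 CPM in photoconverted tumors and 15.6, 16.9, 20.6 and 31.6 CPM in controls. It was high in 3 photoconverted tumors and at the control level in photoconverted tumor 4, with a log2 fold change of 2.65 ± 0.65 (SE; adjusted p of 0.999 in edgeR and 0.0232 in DESeq2). Photoconverted tumor 4 also had the lowest muscle sum (294 CPM) and neutrophil sum (18.3 CPM) of the photoconverted tumors, and the part of neutrophils in the Egr1 and Errfi1 levels was not tested. Fosb was at 1.33 ± 0.54 and Nr4a1 at 0.60 ± 0.22 (SE). With the muscle score as covariate the values were 1.596 for Egr1, 0.63 for Fosb and 0.31 for Nr4a1. Per1 belongs to both kinds of response. It was at 54.8 CPM in photoconverted tumor 4, its highest photoconverted value, where Egr1 was at its lowest, 15.2 CPM. That tumor was over 10% Rn45s, and Per1 was higher in such tumors. Among the 5 tumors under 10%, Per1 was at 46.0, 51.8 and 46.2 CPM in photoconverted tumors and 30.6 and 41.9 CPM in controls. Whether Per1 and Egr1 shared an input was not tested.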

How the data were processed

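The authors deposited raw read counts per gene symbol for 8 tumors and a table of normalized signal values (counts divided by size factors), which left out genes with at most 1 count in all. The submitters' processing notes name CASAVA, FastQC, Trim Galore, HISAT2, featureCounts and DESeq2 and build mm10. Versions and the strand setting are not given in the sources used here, and the labels and the methods name different stranded total RNA kits (SMARTER and TruSeq). Both tables were used. The 10 clock genes and the gene lists were chosen with earlier results of these data known.

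Counts were tested with edgeR 4.0.16 in R 4.3.3 (TMM, filterByExpr, glmQLFit, glmQLFTest, Benjamini-Hochberg over 14468 genes, threshold 0.05). Log2 CPM used a prior count of 2. Exact permutation tests were two-sided. CPM differences, Pearson r and Spearman rho were computed over tumors, with all 40320 pairings. Alternatives were DESeq2 1.42.0, limma 3.58.1 on log2(normalized value + 1), other normalization or filtering, covariates and left-out tumors. An exact test on the normalized values was added after the data were seen. Gene models were GENCODE M21.

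Replicate numbers come from the labels, which state no pairing. Deviations from group means correlated between same-numbered tumors at 0.597, 0.107, 0.407 and 0.623 over all genes tested. Tumors of different number gave -0.600 to 0.482, so these values do not establish a pairing. The number was fitted as a block only as an alternative. Libraries of 1 group differed beyond sampling noise (smallest chi-square per degree of freedom 23.8). The number of reads sets the precision of scarce genes such as Dbp.

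The named genes were the 10 clock genes, up to 3 genes of each list with the smallest unadjusted p, and the 5 genes most like Arntl and Dbp. Sphk2 and Thra were added after annotation overlaps were seen, and Fkbp5 and Tsc22d3 as the lower genes of the glucocorticoid list. The procedures were tested on simulated data before use. The columns were matched to tumors by the letters in the labels.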

Additional observations from a re-analysis of the deposited data

How the results depend on the processing

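No clock gene was called in any of the alternatives that were fitted. Over all genes the 0 calls of edgeR became 19 with DESeq2 and 42 in the 5 tumors under 10% Rn45s, and ranged from 0 to 11 when single tumors were left out (11 without photoconverted tumor 4). The replicate block gave 0 calls with 869 genes at an unadjusted p under 0.05 (322 without the block) and a smallest adjusted p of 0.247, and no call changed under the pairing. Dbp kept its sign in every fit, at -0.98 to -0.43 with 1 tumor left out, -0.82 with the muscle score, -0.64 with the Rn45s share and -0.72 with the block, and Per3 and Nfil3 kept theirs too. Egr1 and Errfi1 passed with DESeq2 and in the 5 tumors (adjusted p of 0.0101 and 0.0229 in edgeR there), and Egr1 also without photoconverted tumor 4. In the simulated data DESeq2 made more false calls than edgeR (40 against 3). Those counts were drawn with edgeR's own dispersions and without an Rn45s split. They therefore cannot show which calls in these tumors are false. With the muscle score, the changes of Ppargc1a, Pdk4, Dusp1, Fosb, Nr4a1, Egr1, Nampt, Ppp2ca, Fbxw11 and Per2 were smaller by over 1.5 times, with no change of sign. Signs turned, on the log2 scale, with the muscle score as covariate for Cry1 (0.13), Cry2 (0.13), Arntl (-0.092), Clock (-0.15) and Nr1d1 (-0.082), with the Rn45s share for Clock (-0.019), and in the 5 tumors for Cry1 (0.11), Cry2 (0.10), Arntl (-0.12) and Clock (-0.26). With 1 tumor left out the range held 0 for Per1 (-0.045 to 0.23), Per2 (-0.15 to 0.043), Cry1 (-0.18 to 0.13), Cry2 (-0.29 to 0.072), Arntl (-0.047 to 0.44), Clock (-0.15 to 0.25) and Nr1d2 (-0.12 to 0.0023). Of the 45 correlations 1 passed adjustment, that of Arntl and Clock, both of which were split by the Rn45s share. The count was 0 after removal of group means or without the 2 farthest tumors, and 0 to 4 with 1 tumor left out (0 without control tumor 3, 4 without control tumor 2). With group means removed only 576 arrangements exist, and a lone pair could not go below an adjusted p of 0.0781. For a correlation the block leaves only 4 differences between same-numbered tumors. The r of Arntl and Nr1d1 turned to -0.0092 without group means, -0.45 with the block, -0.61 with the muscle score and -0.52 in the 5 tumors, and ranged from -0.26 to 0.46 with 1 tumor left out. The r of Arntl and Dbp turned to 0.29 in the 5 tumors and was -0.94 with the block, and that of Per3 and Dbp turned to -0.27 without group means and was 0.96 with the block and 0.74 in the 5 tumors. The cause was not tested.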
